A study of Oryctolagus cuniculus with 6 samples.

Results

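Wnt genes of the rabbit tracheal mucosa were followed after injury by an over-inflated tracheal tube cuff. The set held every row of the deposited gene table whose symbol names a WNT ligand, a Frizzled receptor (FZD), a secreted Frizzled-related protein (SFRP), a Dickkopf protein (DKK), an R-spondin (RSPO), or the R-spondin receptors LGR4, LGR5 and LGR6. It also held FRZB, WIF1, AXIN2, LEF1, TCF7, LRP5 and LRP6; NOTUM, the other gene of the rule, was not analysed here. In all, 46 of 29587 rows were members: 18 ligands, 10 receptors or co-receptors, 8 secreted modulators, 7 R-spondins or LGR receptors, and 3 nuclear factors or targets. The members were matched by name, under a rule chosen with earlier results of these data known.

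Wnt ligands are lipid-modified secreted proteins that bind Frizzled receptors together with LRP5 or LRP6. In the canonical branch this stops the destruction of beta-catenin, which then enters the nucleus and acts with TCF and LEF factors on target genes such as AXIN2. SFRP proteins, FRZB and WIF1 bind ligands outside the cell, DKK proteins act mostly on the LRP co-receptors, and R-spondins with LGR receptors keep Frizzled at the cell surface. In airways, Wnt signals pass between the stroma under the epithelium and the basal cells that renew it.

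The rabbits of both groups were New Zealand animals at 3 months of age. For the injury, a 3.0 mm tube was inserted to 13 cm and its cuff was held at 35 cmH2O for 2 h, while no handling is stated for the control group, nor is the time at which tissue was taken. Each group had 3 polyA RNA-seq libraries, and nothing states whether these came from separate animals, so a p-value here reflects only how far the libraries of a group lie apart. The material is given as epithelial cells in one label and as mucosa in the protocol, and no allele, strain difference or further agent is named.

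Library totals were 10501734 to 14415754 counts, of which the 46 members together took 0.0155% to 0.0293% in the high cuff pressure libraries and 0.0450% to 0.0654% in the controls. Markers of epithelium, fibroblasts, smooth muscle and endothelium were present in all 6 libraries. High cuff pressure replicate 1 stood apart: its 7 smooth muscle markers summed to 477 CPM (counts scaled for library size and composition by TMM) against 4086 to 8907 in the other 5 libraries, and its 12 fibroblast markers to 336 CPM against 1239 to 2517. The 7 neutrophil markers summed to 638 to 2509 CPM with high cuff pressure and to 4.63 to 22.7 CPM in controls. The part of these differences in the results that follow was not tested; values without a library are given where they bear on a call. Because these are bulk samples, fewer cells of a type and less RNA per cell cannot be told apart.

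The comparison asks which parts of the Wnt system differ in mucosa after the cuff injury. The secreted inhibitors SFRP2 and WIF1 fell, SFRP2 by the most: from a mean of 131 to 9.68 CPM. No ligand, Frizzled or LRP gene passed the test, nor did AXIN2, the usual transcript read as a measure of canonical signalling. Of the 46 members, 33 had enough counts to be tested; 2 were lower and 0 higher at an adjusted p under 0.05 (edgeR quasi-likelihood test, Benjamini-Hochberg over all 13724 genes tested). Over all genes tested, 1.62% were called lower and 3.67% higher (5.28% in either direction), and the 2 members lower were 6.06% of those tested. At an unadjusted p under 0.05, 4 members were lower and 1 higher, where the same rule called 13.6% and 15.6% of all genes; the 4 are 12.1% of 33, close to that background. DESeq2 called 4 members lower (12.1%) and 0 higher, but it also called more of all genes, 8.55% lower and 10.7% higher.

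Values below 0 (lower with high cuff pressure) were found for 23 of the 33 members, with a median log2 fold change of -0.47 against -0.01 over all genes tested. The secreted modulators lay lowest, with all 6 tested members below 0 and a median of -1.71. DKK1 turned above 0 with limma-voom, with the replicate number as a block and without control replicate 1, and the median was -3.36 over the 8 modulators tested without high cuff pressure replicate 3. Ligands had 6 of 11 below 0 (median -0.47) and receptors 7 of 10 (median -0.14). Libraries of the groups did not overlap for 6 members that were lower in high cuff pressure and for 1 that was higher; over all genes 18.7% and 18.6% were separated in this way, so the 6 of 33 (18.2%) lie at the background.

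**Figure D1:**
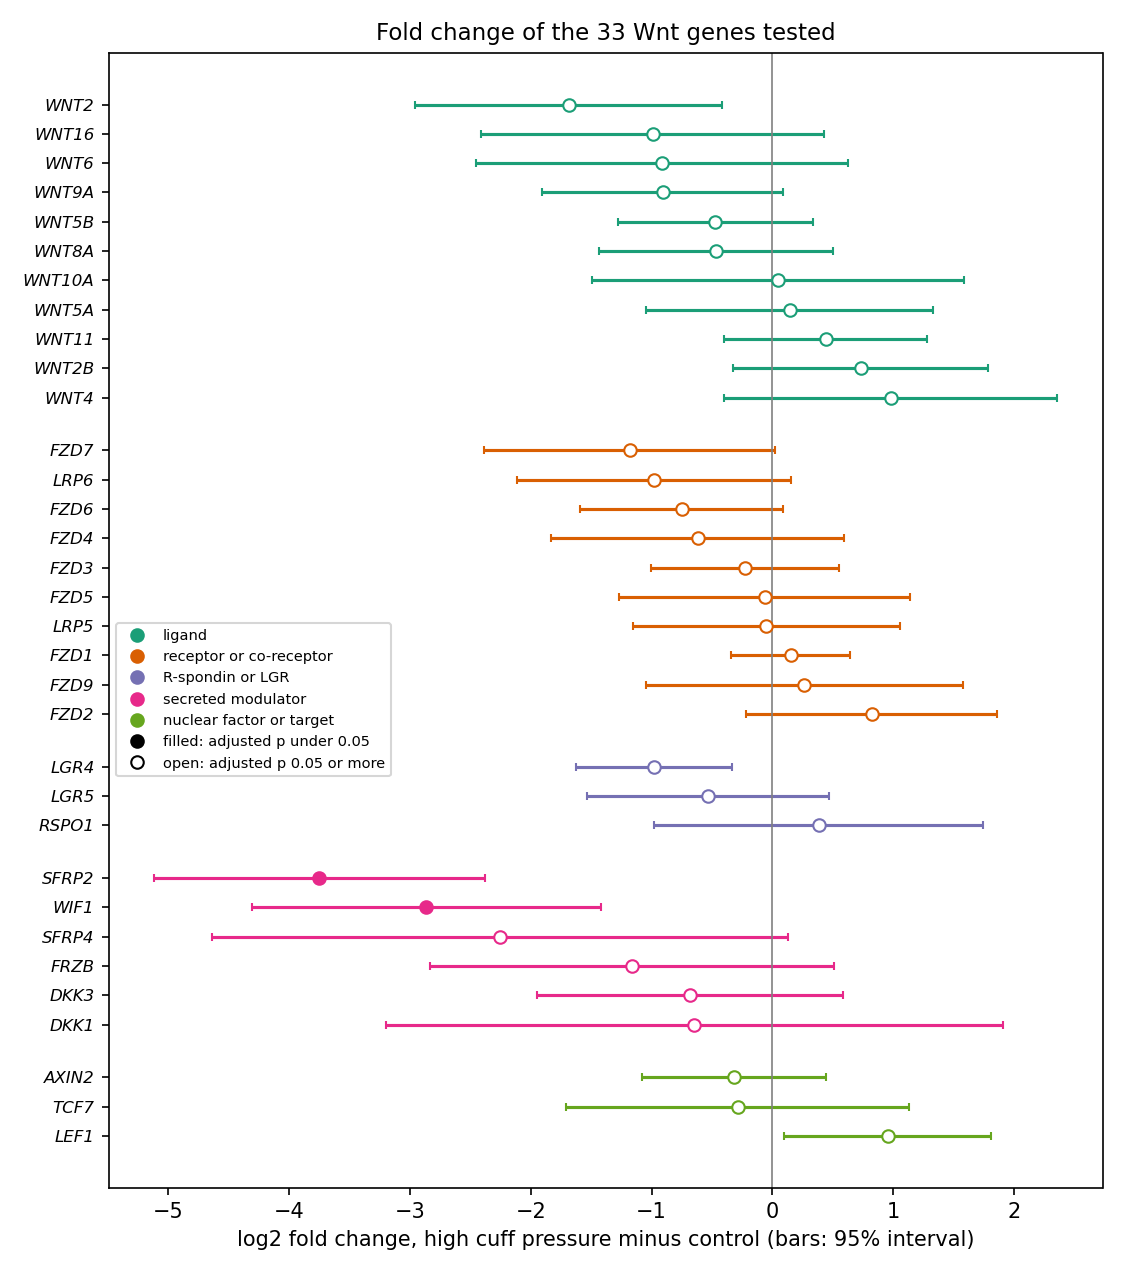
Log2 fold change (high cuff pressure minus control) of the 33 members tested, in groups by role; bars are 95% intervals from edgeR's fit and filled points have an adjusted p under 0.05. The filled points are SFRP2 and WIF1, and the 6 secreted modulators lie left of 0 in this fit (DKK1 lies right of 0 in 3 of the alternative fits).

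SFRP2, a secreted Frizzled-related protein made mainly by fibroblasts, was the most abundant member in controls when levels were set per length. Its FPKM, a level per length and per library total by the authors, averaged 85.5 in controls, where the next members, FZD6 and FZD1, had 25.5 and 19.6. SFRP2 (chromosome 15, 10007158 to 10014838, minus strand) stood at 113, 169 and 109.6 CPM in the 3 controls and at 2.56, 11.2 and 15.3 CPM in the 3 high cuff pressure libraries. The lowest control was thus several times above the highest injured library. The mean of 9.68 ± 6.50 CPM (SD, n = 3) against 131 ± 33.5 CPM corresponds to a log2 fold change of -3.75 ± 0.59 SE, a 13.5-fold lower level (edgeR adjusted p = 0.023). The share of SFRP2 in the summed FPKM of the 46 members was 31.1%, 39.0% and 35.6% in controls and 1.70%, 6.79% and 5.83% with high cuff pressure. The sum of the other 45 members was 135 to 181 FPKM in controls and 70.2 to 128 FPKM with high cuff pressure. FPKM are scaled by library total, and with that scaling the median log2 fold change of all genes tested was itself -0.40.

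The size of the SFRP2 difference changed little when libraries were left out, with log2 fold changes from -4.26 to -3.29 over the 6 fits. Without high cuff pressure replicate 1, the library poor in stromal markers, the value was -3.29 (edgeR adjusted p = 0.0048). The call was lost without high cuff pressure replicate 2 (-3.85, adjusted p = 0.095) and without control replicate 1 (-3.84, 0.058), 2 (-3.52, 0.091) or 3 (-3.86, 0.091). In these 4 fits the calls over all genes also dropped, from 503 higher and 222 lower to 3 and 1, 68 and 8, 0 and 0, and 0 and 0.

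Fibroblast markers were measured beside SFRP2, since SFRP2 is a gene of stroma. Of 12 tested markers, OGN and LUM were lower and 0 were higher, where 1.62% and 3.67% of all genes tested were called. DCN and MFAP4 did not pass but had all injured libraries below all controls (log2 fold changes -1.08 and -1.57). In all, 4 of the 12 were separated as lower and 0 as higher, where 18.7% and 18.6% of all genes were. The list had a median log2 fold change of -0.52. Its summed level overlapped between groups, at 336, 1239 and 1799 CPM with high cuff pressure and at 1507, 2517 and 1688 CPM in controls. The fibrillar collagen genes COL1A1, COL1A2 and COL3A1 did not pass (log2 fold changes -0.13, -0.26 and -0.53), so a ratio to them takes markers that differed less than OGN, LUM, DCN and MFAP4. Set against the counts of these 3 collagen genes in the same library, a measure chosen after the values were seen, SFRP2 gave 12.9, 14.7 and 12.5 counts per 1000 with high cuff pressure and 188, 112 and 147 per 1000 in controls. The ratio of group means was 11.1-fold and the groups did not overlap. The exact permutation test (two-sided) gave p = 0.10, the smallest that 3 against 3 libraries allow. The proteoglycan gene OGN was also lower per collagen count (27.3 ± 9.35 against 196 ± 93.3, n = 3), as was LUM (88.1 ± 32.8 against 231 ± 81.0), while DCN overlapped between groups (142 ± 22.5 against 266 ± 118). These ratios do not measure the number of stromal cells, whose part in the SFRP2 difference was not tested.

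**Figure D2:**
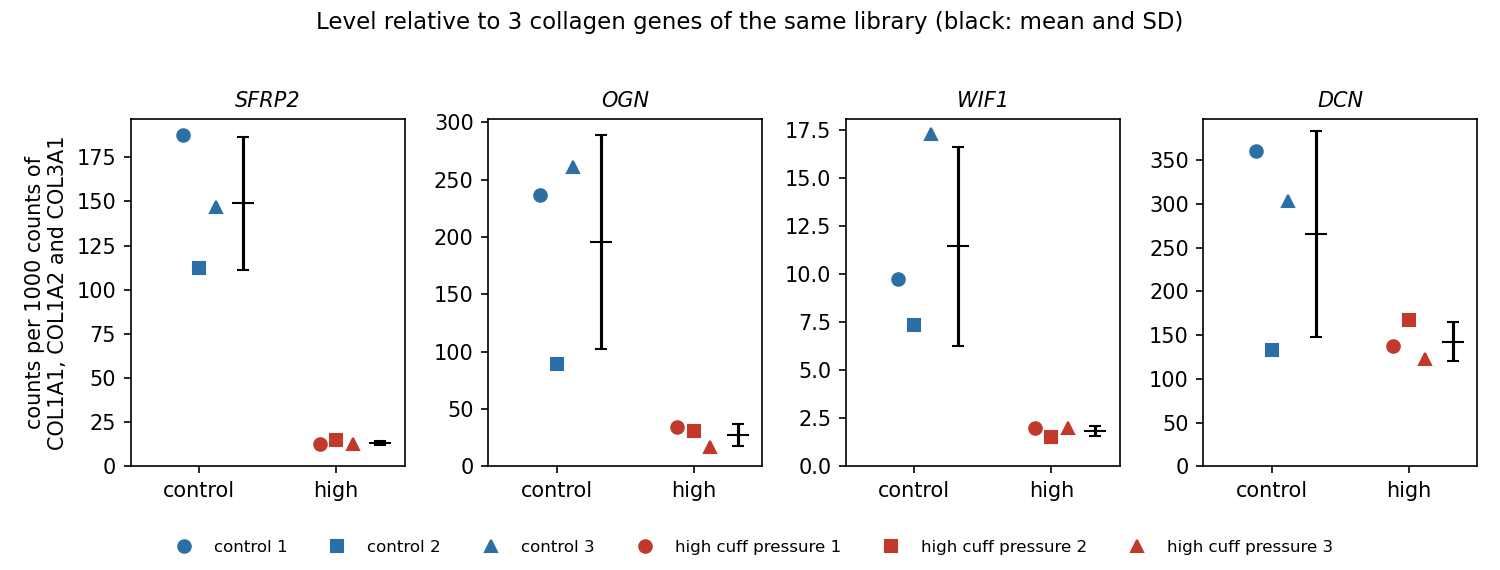
Counts of SFRP2, OGN, WIF1 and DCN per 1000 counts of COL1A1, COL1A2 and COL3A1 in the same library (linear axes from 0); symbols mark libraries and black bars the mean and SD of 3. The 3 injured libraries lie at 12.5 to 14.7 for SFRP2, below all controls, while the groups overlap for DCN.

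WIF1, Wnt inhibitory factor, a secreted protein that binds ligands directly, was the other member that fell. WIF1 (chromosome 4, 43863790 to 44015917) had 5.90, 11.1 and 12.9 CPM in controls and 0.394, 1.18 and 2.42 CPM with high cuff pressure, with no overlap. The means were 9.96 ± 3.63 and 1.33 ± 1.02 CPM (n = 3), a log2 fold change of -2.86 ± 0.62 SE (edgeR adjusted p = 0.047, near the threshold). Counts behind it were low, at 4, 10 and 32 in the injured libraries and 69, 172 and 177 in controls. The value was -2.43 without high cuff pressure replicate 1 (adjusted p = 0.027) and -3.68 without high cuff pressure replicate 3 (0.045). The call was lost in the same 4 fits as that of SFRP2, with log2 fold changes of -3.13 to -2.64 and adjusted p of 0.073 to 0.17. Per 1000 collagen counts WIF1 stood at 1.84 ± 0.253 against 11.5 ± 5.18. Per 1000 counts of the epithelial genes EPCAM and CDH1 it stood at 3.76 ± 2.40 against 24.7 ± 8.67. Neither pair of groups overlapped (exact permutation test, two-sided p = 0.10 for each, the smallest possible). EPCAM and CDH1 had log2 fold changes of -0.34 and -0.11, while 5 of the 8 epithelial markers were above 0 (list median 0.24).

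The other secreted modulators varied more between libraries. SFRP4, a relative of SFRP2 that is also made by stromal cells, had 10.6, 7.91 and 1.24 CPM in controls and 0.197, 0.471 and 3.26 CPM with high cuff pressure. Control replicate 3 and high cuff pressure replicate 3 crossed, and SFRP4 did not pass (log2 fold change -2.26 ± 1.03 SE, edgeR adjusted p = 0.19; -4.29 without high cuff pressure replicate 3, adjusted p = 0.085). DKK3, a divergent Dickkopf relative, had 14.4, 9.85 and 4.37 CPM in controls and 2.66, 7.53 and 7.65 CPM with high cuff pressure (-0.68 ± 0.55 SE, adjusted p = 0.43). Its groups overlapped as well. DKK1, the classical LRP antagonist, rested on a single library: control replicate 1 had 15.6 CPM, the other controls 1.16 and 0.802 CPM, and the injured libraries 1.28 to 6.71 CPM. Its log2 fold change was -0.65 ± 1.10 SE with all libraries and 1.90 without control replicate 1 (edgeR adjusted p = 0.73 and 0.18). FRZB, also called SFRP3 and known from cartilage, had a log2 fold change of -1.16 (adjusted p = 0.31).

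SFRP5 and DKK2, the modulators with too few counts for the main test, had fewer counts after injury. SFRP5 had 14, 3 and 12 counts in controls and 1, 0 and 1 with high cuff pressure, a count ratio of 11.3 (95% counting interval 2.85 to 97.5). DKK2 had 7, 22 and 16 counts in controls and 0, 2 and 7 with high cuff pressure, a ratio of 3.89 (1.88 to 9.04). Libraries of the groups did not overlap for either gene after scaling, where 18.7% of all genes tested were separated as lower. For DKK2 the nearest libraries lay at 0.530 CPM (high cuff pressure replicate 3) and 0.598 CPM (control replicate 1). The intervals cover counting error only. In the fit without a filter, SFRP2 and WIF1 were the only members called, so SFRP5 and DKK2 did not pass there. All 8 modulators with a row thus had a lower mean with high cuff pressure, which counts values and not calls, and for DKK1 rests on control replicate 1. The authors' deposited table listed 44 of the members, of which 3 were called down (SFRP2, WIF1 and SFRP5) and 0 up, where 3.67% and 3.97% of its 19001 genes were called down and up. That table gave SFRP5 a q of 0.026.

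**Figure D3:**
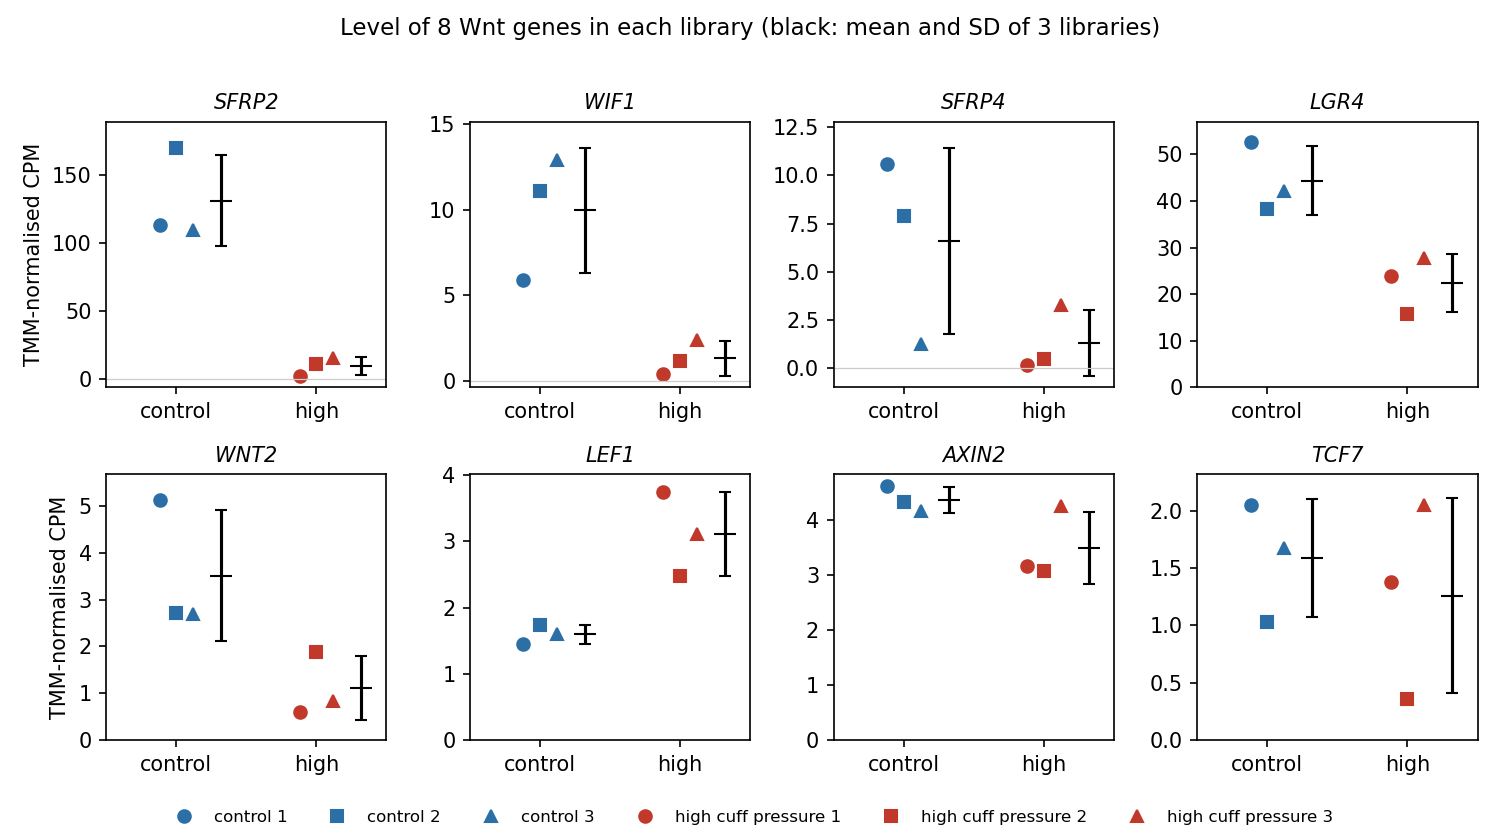
TMM-normalised CPM of 8 members in each library (linear axes; symbols mark libraries, black bars the mean and SD of 3). SFRP2 and WIF1 lie lower in all 3 injured libraries, LGR4 and WNT2 are separated by less, LEF1 is separated in the other direction, and SFRP4, AXIN2 and TCF7 overlap.

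Among R-spondins and their receptors, LGR4 was the main transcript. LGR4, the broadly expressed R-spondin receptor of epithelia, had 52.7, 38.4 and 42.1 CPM in controls and 24.0, 15.7 and 27.7 CPM with high cuff pressure. The groups did not overlap, yet LGR4 did not pass over all genes (log2 fold change -0.98 ± 0.28 SE, 95% interval -1.63 to -0.33, edgeR adjusted p = 0.075); it passed with DESeq2 (adjusted p = 0.016). Per 1000 counts of EPCAM and CDH1 it stood at 64.2 ± 6.06 with high cuff pressure and 113 ± 30.1 in controls, again with no overlap (exact permutation test, two-sided p = 0.10, the smallest possible). Other epithelial markers went the other way: KRT5, KRT8 and CLDN4 had all injured libraries above all controls (log2 fold changes 2.38, 0.88 and 0.67), though none passed. These were 3 of 8 tested epithelial markers, where 18.6% of all genes were separated as higher. The LGR4 model, at 5425 bases, is long, and the 1491 tested genes with models over 5000 bases had a median log2 fold change of -0.18. With a length trend removed LGR4 had -0.82 (edgeR adjusted p = 0.089). LGR5, a stem cell marker in several epithelia, was far lower in level (1.07 FPKM in controls against 9.30 for LGR4) and had 3.93, 3.35 and 2.04 CPM in controls and 1.48, 2.12 and 2.80 CPM with high cuff pressure. Those groups overlapped (-0.53 ± 0.43 SE, adjusted p = 0.44). LGR6 had 15, 0 and 8 counts in controls (23 in all) and 0, 0 and 6 with high cuff pressure, and its groups overlapped.

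Of the R-spondins themselves only RSPO1 had enough counts to be tested, and it did not differ beyond the spread (2.22, 1.22 and 0.729 CPM in controls, 0.887, 2.82 and 1.74 CPM with high cuff pressure; log2 fold change 0.38 ± 0.59 SE, edgeR adjusted p = 0.70). RSPO3, an R-spondin of stroma and vessels, had 3, 10 and 12 counts in controls and 2, 0 and 5 with high cuff pressure. The ratio was 2.78 (95% counting interval 1.17 to 7.60), but the groups overlapped after scaling. RSPO2 had 3 counts in all, and RSPO4 had 0 in all 6 libraries, so neither was detectable at this depth as different.

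Ligand transcripts were low, and 11 of 18 could be tested. WNT4 was the leading ligand in FPKM (mean of 9.14 over all libraries), followed by WNT10A (4.15) and WNT5B (2.91). WNT4 had 8.63, 15.1 and 4.01 CPM in controls and 7.89, 16.5 and 30.5 CPM with high cuff pressure. Its mean was higher after injury, but the groups overlapped and it did not pass (log2 fold change 0.98 ± 0.60 SE, 95% interval -0.40 to 2.36, edgeR adjusted p = 0.30); without high cuff pressure replicate 3 the value was 0.39. WNT10A, which lies next to WNT6 on chromosome 7 (160141738 to 160152501 and 160131267 to 160134358), had 8.63, 5.47 and 2.70 CPM in controls and 1.48, 6.47 and 9.32 CPM with high cuff pressure. Its value of 0.05 ± 0.67 SE gives no direction. WNT5B, mostly a ligand of beta-catenin-independent signalling, had 13.6, 8.94 and 9.26 CPM in controls and 5.91, 10.6 and 6.44 CPM with high cuff pressure (-0.47 ± 0.35 SE, adjusted p = 0.39).

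WNT2, a ligand of lung and airway mesenchyme, was the ligand with the smallest p. It had 5.13, 2.70 and 2.70 CPM in controls and 0.591, 1.88 and 0.833 CPM with high cuff pressure, without overlap. The log2 fold change of -1.68 ± 0.55 SE did not pass with edgeR (adjusted p = 0.097) and did with DESeq2 (adjusted p = 0.038). Its relative WNT2B had a value of 0.73 in the other direction (adjusted p = 0.32), and the difference between the pair was not tested. WNT9A, at 2.26 to 2.90 CPM in controls and 0.789 to 1.77 CPM after injury, was the other tested ligand whose groups did not overlap (-0.91, adjusted p = 0.20). The remaining tested ligands, WNT5A, WNT6, WNT8A, WNT11 and WNT16, had values from -0.99 to 0.44 and overlapping groups.

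The 7 untested ligands had at most 35 counts in a group. WNT9B had 9, 5 and 0 counts with high cuff pressure and 0 in all 3 controls; its row (chromosome 19, 45782094 to 45834267, minus strand) overlaps that of WNT3 (45832050 to 45866048, plus strand), and the strand setting of the counting is not given. WNT3 itself had 1 count in all. WNT7A had 15 counts with high cuff pressure and 5 in controls (ratio 3.86, 95% counting interval 1.33 to 13.6), with a library at 0 in each group. WNT1, WNT3A, WNT8B and WNT10B gave 0, 21, 8 and 6 counts with high cuff pressure and 5, 35, 6 and 7 in controls. None of these counts can carry a comparison between groups.

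All 10 receptor and co-receptor genes were tested and 0 passed, in either direction, with edgeR or DESeq2 (0 at an unadjusted p under 0.05 with edgeR). FZD6, a Frizzled mostly tied to planar cell polarity, and FZD1 led in FPKM (means of 18.5 and 18.1 over all libraries), ahead of the co-receptor gene LRP5 (8.06). FZD6 had 43.8, 64.6 and 53.5 CPM in controls and 35.8, 16.6 and 43.7 CPM with high cuff pressure. The groups touched at 43.8 and 43.7 CPM without crossing (log2 fold change -0.75 ± 0.36 SE, adjusted p = 0.21). FZD1 had the smallest SE of the tested members, at 29.9, 28.7 and 26.7 CPM in controls and 28.8, 30.4 and 35.7 CPM with high cuff pressure (0.15 ± 0.21 SE, 95% interval -0.34 to 0.65). This interval leaves out a 2-fold change in either direction, though with total-count scaling the value was -0.24, when the median of all genes itself moved to -0.40.

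LRP5 had 11.5, 21.6 and 15.5 CPM in controls and 10.8, 8.36 and 27.5 CPM with high cuff pressure, with full overlap (-0.05 ± 0.48 SE). LRP6, the other co-receptor, had 24.5, 60.4 and 43.9 CPM in controls and 32.4, 9.30 and 23.5 CPM with high cuff pressure (-0.98 ± 0.49 SE, edgeR adjusted p = 0.22). Both co-receptor genes were thus within the spread of their libraries. FZD7 came closest to an unadjusted threshold (-1.18 ± 0.52 SE, unadjusted p = 0.053, adjusted p = 0.18), and FZD2 had the highest value (0.82, adjusted p = 0.26). FZD3, FZD4, FZD5 and FZD9 had values from -0.62 to 0.27.

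**Figure D4:**
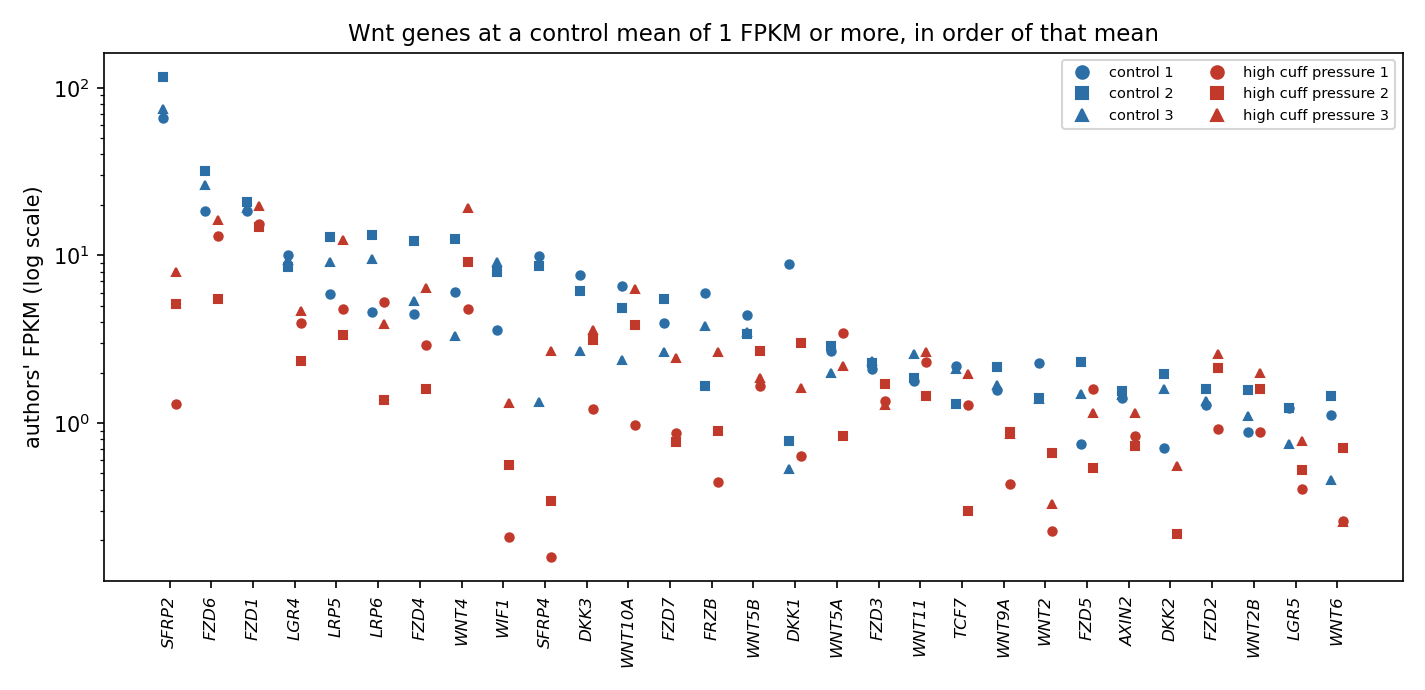
The authors' FPKM (log scale) of the 29 members with a control mean of at least 1 FPKM, in order of that mean; blue marks controls, red high cuff pressure, and symbols the library. SFRP2 leads in controls and lies below FZD6 and FZD1 in each of the 3 injured libraries; DKK2 is at 0 in high cuff pressure replicate 1 and that point is not drawn.

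AXIN2, a scaffold of the beta-catenin destruction complex that canonical signalling itself induces, had 4.61, 4.31 and 4.15 CPM in controls and 3.15, 3.06 and 4.24 CPM with high cuff pressure. The groups overlapped by one library and the log2 fold change was -0.32 ± 0.33 SE (95% interval -1.08 to 0.44, edgeR adjusted p = 0.55). The interval leaves out a rise of 1 log2 unit but not a fall of that size. LEF1, a nuclear partner of beta-catenin that is itself a Wnt target, had 1.45, 1.74 and 1.60 CPM in controls and 3.75, 2.47 and 3.11 CPM with high cuff pressure. LEF1 was the only tested member with all injured libraries above all controls, but it did not pass (0.96 ± 0.37 SE, unadjusted p = 0.033, adjusted p = 0.14; 0.12 to 0.35 over the alternative fits). TCF7, a related factor, had 2.05, 1.03 and 1.68 CPM in controls and 1.38, 0.353 and 2.05 CPM with high cuff pressure (-0.29 ± 0.61 SE, adjusted p = 0.79). LEF1 and TCF7 are also T cell genes, and the 9 T cell markers with a row summed to 26.0 to 28.5 CPM with high cuff pressure and 25.9 to 35.1 CPM in controls, with 0 of 8 tested markers passing. Of these 8, 6 were below 0 (median -0.69). CD2, CD5 and IL7R had all injured libraries below all controls and CCR7 had them above, where 18.7% and 18.6% of all genes did. The part of T cells in the LEF1 and TCF7 values was not tested.

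The rest of the pathway was read from 4 lists of other Wnt genes, 86 in all, of which 72 had a row and 66 were tested; 1 was higher (1.52%) and 2 were lower (3.03%), where edgeR called 3.67% and 1.62% of all genes. The median log2 fold change over the 66 genes was -0.06. Among 15 tested genes of ligand secretion and the membrane, APCDD1, a membrane inhibitor of Wnt signalling, fell from 43.0 ± 4.32 to 19.0 ± 1.86 CPM (n = 3; -1.18 ± 0.22 SE, edgeR adjusted p = 0.034), and 0 were higher. WLS, which carries ligands to the cell surface, and PORCN, which attaches their lipid, had values of -0.19 and -0.06, and the Frizzled-removing ligases RNF43 and ZNRF3, themselves Wnt targets, had 0.22 and 0.05. Among 26 tested genes of the cytoplasm and nucleus, PYGO1, a nuclear co-factor of beta-catenin, fell from 9.74, 14.0 and 12.3 CPM in controls to 4.93, 2.35 and 2.42 CPM (-1.89 ± 0.39 SE, adjusted p = 0.041), and 0 were higher. CTNNB1, the beta-catenin gene, had -0.09 ± 0.29 SE, and its libraries overlapped. Both calls were lost without high cuff pressure replicate 2 or 3 and without any 1 control. The edgeR adjusted p was then 0.054 to 0.14 for APCDD1 and 0.082 to 0.16 for PYGO1. They were also lost with the replicate number as a block (0.13 and 0.098). DESeq2 further called MESDC2 and CTNNBIP1 higher (edgeR log2 fold changes 0.92 and 0.86) and ROR1 and APC lower (-2.63 and -1.11), none of which passed with edgeR. Of the other Wnt pathway genes it called 7.69% higher and 9.23% lower, against 10.7% and 8.55% of all genes.

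None of 14 tested planar cell polarity genes passed in the main edgeR fit (0 calls). At an unadjusted p under 0.05, 1 was higher and 2 were lower, where 15.6% and 13.6% of all genes were. DESeq2 called ROCK1 and ROCK2 lower. ROCK1 (edgeR adjusted p = 0.054 in the main fit) was also called with limma-voom and with total counts only. Without high cuff pressure replicate 1, ROCK1, DAAM1 and INTU were called. Among 11 tested targets and feedback genes only FOSL1 was higher with edgeR, an AP-1 subunit induced by many wound signals besides Wnt. It had 29, 48 and 52 counts with high cuff pressure and 1 count over the controls, a ratio of 166 (95% counting interval 29.3 to 6606). The ratio was 118.6 with control replicate 1 left out and 110.4 with control replicate 3 left out. With control replicate 2 left out the controls held 0 counts, and taking 3 counts for the whole group instead gives a level at least 34.3-fold higher. The edgeR call of FOSL1 was lost when high cuff pressure replicate 2, control replicate 2 or control replicate 3 was left out, where 3 and 1, 0 and 0, and 0 and 0 genes were called in all. NKD1, an inducible feedback inhibitor, had -0.15 ± 0.36 SE. MYC had 0.99 ± 0.49 SE (edgeR adjusted p = 0.22), CD44 1.60 ± 0.57 SE (0.12) and MMP7 2.88 ± 0.89 SE (0.087), and none of them passed with edgeR. DESeq2 called CD44 and MMP7 higher, where it called 10.7% of all genes higher. Of the 11 genes, 4 had all injured libraries above all controls and 0 the reverse, where 18.6% and 18.7% of all genes did. Genes of this list are induced by other pathways too, so its values describe transcripts and not the activity of Wnt signalling.

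The authors' deposited enrichment tables gave the 5 Wnt terms read here rich factors from 0.88 to 1.13, where 1 is the share of changed genes over all terms, and a q of 1 each. The ontology term Wnt signaling pathway held 20 of 247 annotated genes (6 up, 14 down; rich factor 1.13), and positive regulation of Wnt signaling held 6 of 83 (3 up, 3 down; 1.01). The pathway term Wnt signaling held 6 of 92 annotated genes (2 up, 4 down; rich factor 0.88). The ontology term for negative regulation of Wnt signaling held 7 of 98, of which 0 were up and 7 down (rich factor 1.00), and its canonical counterpart 6 of 80, with 0 up and 6 down (1.05).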

How the data were processed

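The deposited gene table holds raw counts per gene and, per the file headers, FPKM by the authors; the other deposited tables hold log2 fold changes with p-values and q-values from the authors' own comparison, and term enrichments with a rich factor, which is a ratio by the authors. HISAT2 2.0.4, StringTie 1.3.3b and edgeR are listed, with no roles, in the submitters' processing notes; positions follow the table, with genome build and strand setting not given in the sources used here. Counts were fitted with edgeR 4.0.16 in R 4.3.3 (filterByExpr, TMM, glmQLFit with robust estimation, glmQLFTest) over all 13724 genes passing the filter. Calls took a Benjamini-Hochberg adjusted p under 0.05. The code was run on counts simulated with means and dispersions estimated from these data, which cannot test the assumptions of the model. Alternatives used DESeq2 1.42.0, limma-voom 3.58.1, other scalings and filters, the replicate number as a block, and each library left out; removal of a length trend and the within-library ratios were added after seeing the data. Gene lists had 144 of 170 genes with a row, 4 by an older symbol. Described in full were members with a p under 0.05, the 3 highest in FPKM of each role, and AXIN2, LEF1, TCF7 and SFRP2; others named were chosen after their values were seen. The members and lists were chosen with earlier results of these data known. Libraries of a group differed beyond sampling noise (56.1 to 137 chi-square per degree of freedom), and each counted as 1 replicate. Count ratios use TMM-scaled totals and exact intervals.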

Additional observations from a re-analysis of the deposited data

How the results depend on the processing

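SFRP2 and WIF1 were below 0 in all 15 alternatives and were called in 11 of them; the members called lower numbered 4 with DESeq2 and 4 with total counts only, where WNT2 and LGR4 joined, and 0 to 2 with a library left out. Members higher stayed at 0 throughout. With total counts only the median of all genes moved to -0.40. Other pathway genes called higher and lower numbered 5 and 6 with DESeq2, and 0 to 3 and 0 to 6 with a library left out. All genes called higher and lower numbered 1461 and 1170 with DESeq2 and 0 to 1362 and 0 to 1261 with a library left out; with total counts only 389 were higher and 1241 lower. The replicate block gave 198 higher and 46 lower genes over the whole table, 0 pathway genes lower, and the same 2 members. Same-numbered libraries did not deviate together (correlations -0.28, -0.20 and -0.23). Some libraries with different numbers did. The correlation was 0.32 for high cuff pressure replicate 2 with control replicate 1, 0.22 for 3 with 2, and 0.33 for 1 with 3. The remaining pairs lay from -0.14 to 0.006. With 3 libraries in each group this cannot settle whether any were paired, and the meaning of the numbers is not stated.

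Of the 33 tested members, 9 changed sign in some alternative, and none of these 9 had passed. WNT10A had -0.31 with total counts only, -0.12 with limma-voom, -0.066 with the replicate block, and -0.50 to 0.51 with a library left out (below 0 without high cuff pressure replicate 2 or 3 or control replicate 3). LRP5 had -0.75 to 0.25 with a library left out, above 0 without high cuff pressure replicate 1 or 2 or control replicate 2. FZD1 had -0.24 with total counts only. With a library left out, TCF7 had -0.83 to 0.13 and RSPO1 -0.052 to 0.88, each changing sign without high cuff pressure replicate 2. DKK1 was above 0 in 3 alternatives (0.36 to 1.90), FZD5 in 2 (0.23 to 0.33), and WNT5A and FZD9 were below 0 in 3 each (-0.34 to -0.028 and -0.13 to -0.017). The cause was not tested. Depth limits the 13 members that were not tested in the main fit. The intervals given for some of them cover counting error only and do not mark a difference between groups. In the fit without a filter, SFRP2 and WIF1 were the only members called, so none of the 13 passed there.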
